A study of Rattus norvegicus with 40 samples.

Results

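The comparison described here sets the liver response to TCDD in rats with a wild-type aryl hydrocarbon receptor (AHR) against that in rats whose AHR has a deletion in its transactivation domain. It rests on 32 of the 40 arrays of the series, those taken 19 h after dosing, in 8 groups of 4 male rats aged 10 to 12 weeks. The sensitive collective (16 arrays) holds L-E rats and rats of line LnC, which carry the wild-type receptor, and the resistant collective (16 arrays) holds H/W rats and rats of line LnA, which carry the deleted form. In each strain/line 4 rats received a single dose of TCDD (100 µg/kg by gavage) and 4 received the corn oil vehicle, so that every corn oil group has the receptor of its own strain/line. Both lines, LnA and LnC, descend from matings between the H/W and L-E strains, and each collective therefore has 1 parental strain and 1 line. A whole treatment group of 4 rats shared a cage, so cage and treatment group cannot be told apart, and with 2 strains/lines per collective other alleles that go with the receptor in both of them cannot be told apart from it. Total RNA of whole liver was hybridised to Affymetrix RAE230A arrays, 1 per rat, which read each gene through 1 or more sets of short probes, and values are log2 signals, on which a difference of 1 is a doubling.

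The AHR is a cytosolic receptor that moves to the nucleus when TCDD binds it, pairs with ARNT and binds short DNA elements with the core GCGTG near its target genes. Its transactivation domain recruits the proteins that start transcription. In liver the receptor is known for the induction of drug-metabolising enzymes such as Cyp1a1, and TCDD also disturbs glucose, lipid and amino acid metabolism. Rats with the deleted domain survive doses of TCDD that kill rats with the wild-type receptor, and the design asks which mRNAs respond differently in these rats.

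For each of 10411 genes the TCDD effect (mean of the TCDD arrays minus mean of the corn oil arrays) was taken in each strain/line, and the interaction was the mean effect in L-E and LnC minus the mean effect in H/W and LnA. limma, with a linear model for every gene over the 8 groups and a spread moderated across genes, tested the interaction, and p was adjusted over all genes by the Benjamini-Hochberg method. A gene was called when its adjusted p was under 0.01 and both sensitive effects lay on the same side of both resistant effects. In this fit the standard error of the effect in a single strain/line equals that of the interaction.

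By this rule 10 genes were called, 0.0961% of those tested. In 6 of them (0.0576%) the effect was higher in the sensitive collective: Vxn, Cyfip2, Ackr3, Bambi, Fam8a1 and Cpb2. In 4 of them (0.0384%) it was lower: Slc17a1, Slc17a3, Mtus1 and Slc25a15. With each array centred on its median the counts were 3 higher and 5 lower. Every gene with an adjusted p under 0.01 also met the separation, which without a test was met by 51.2% of all genes (41.8% with the sensitive effects above and 9.35% below). The median interaction over all genes was 0.04, it was above 0 for 69.9% of genes, and with the arrays centred on their medians it was -0.02 and above 0 for 36.9%. The sign of small interactions thus changed with the scaling. At an unadjusted p under 0.05, 826 genes passed (7.93%).

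**Figure D1:**
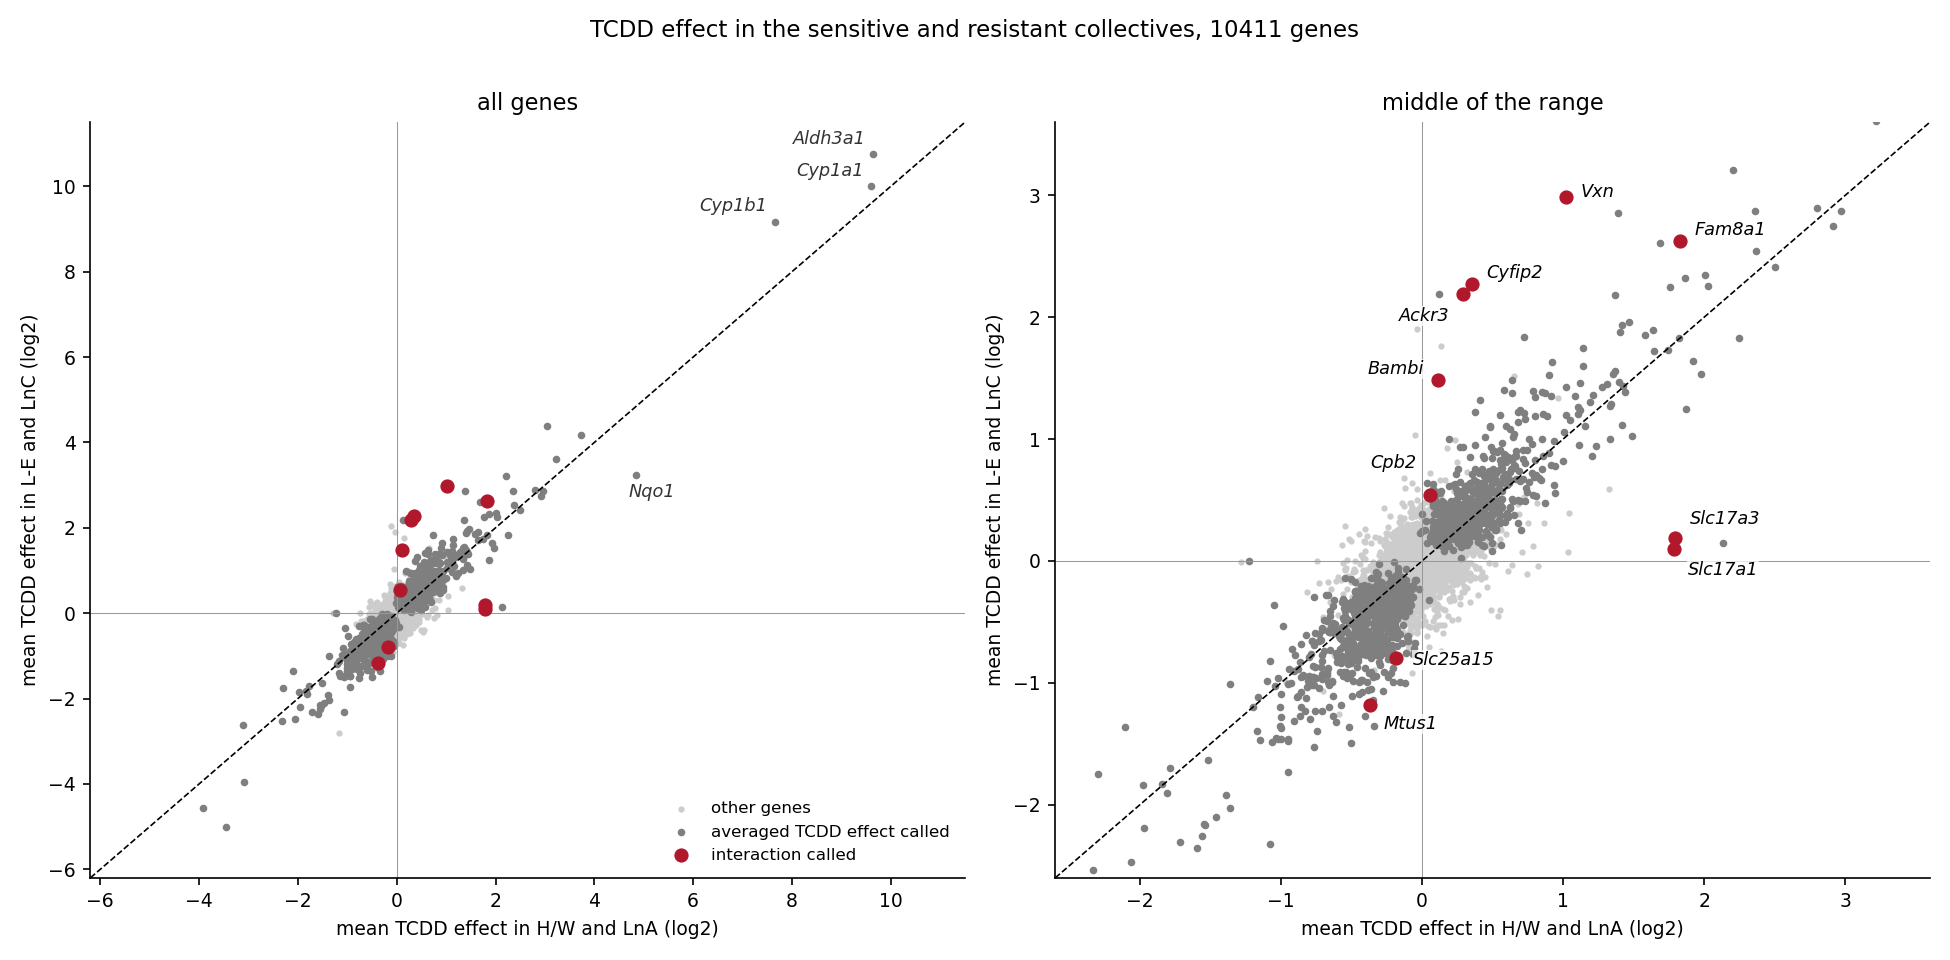
Each point is a gene, with its mean TCDD effect in H/W and LnA on the x axis and in L-E and LnC on the y axis (log2, TCDD minus corn oil) over the whole range (left) and its middle (right), and the dashed line marks equal effects. Most genes with a called averaged effect (dark grey) lie along the line, whereas Slc17a1 and Slc17a3 lie near 0 on the y axis and the 4 genes Vxn, Cyfip2, Ackr3 and Bambi lie well above the line.

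The arrays were similar in level and spread. Their median signal ran from 3.52 to 3.76, and correlations within a group from 0.992 to 0.996. All 5 measured hepatocyte markers, among them Alb and Ttr, were above the lowest array median in all 8 groups. The summed linear signal of 8 macrophage and other immune markers, on a log2 scale, was 0.31 higher after TCDD in L-E rats (12.15 to 12.74 after TCDD and 11.83 to 12.39 in corn oil, with overlap). The difference was -0.33 in H/W rats (11.30 to 11.55 and 11.73 to 11.88, no overlap), -0.11 in LnC and 0.01 in LnA. Of these 8 markers all were above the lowest array median in all groups, none was called, and the part of such cells in the results below was not tested. Of 8 stellate and endothelial, 5 bile duct and 7 blood, pancreas and fat markers, none was called either, and Des, Pecam1, Vwf, Krt19, Krt7, Spp1, Muc1, Prss1, Cpa1, Plin1 and Fabp4 were under the lowest array median in every group. Because the RNA came from whole liver, fewer cells of a type and less RNA per cell cannot be told apart.

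Slc17a1 and Slc17a3 encode transporters of organic anions and urate in the hepatocyte and kidney, and lie beside each other on chromosome 17. In the sensitive collective, Slc17a1 read 7.81, 7.64, 7.69 and 8.08 on the corn oil arrays of L-E rats and 7.88, 8.15, 7.83 and 8.04 after TCDD, and 7.51, 7.81, 8.06 and 7.63 and 7.89, 7.46, 8.06 and 7.75 in LnC rats. In the resistant collective the corn oil arrays read 8.19, 8.28, 8.32 and 8.09 in H/W rats and 7.92, 7.47, 7.82 and 7.32 in LnA rats, and the TCDD arrays 9.91, 9.67, 9.72 and 9.53 and 9.55, 10.01, 9.91 and 9.38. Each of the 8 TCDD arrays of the resistant collective was higher than all 24 other arrays, whereas TCDD and corn oil arrays overlapped in both sensitive strains/lines. The effects, 1.49 for H/W and 2.08 for LnA beside 0.17 for L-E and 0.04 for LnC, gave an interaction of -1.68 (standard error 0.15, adjusted p = 3.13e-07 from limma). Slc17a1 was also the only gene called in both pairs, L-E minus H/W (-1.32, adjusted p = 0.00631) and LnC minus LnA (-2.05, adjusted p = 7.13e-06), by limma over all genes.

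Slc17a3 likewise had larger effects in both resistant strains/lines. It read 8.84, 8.68, 8.91 and 9.28 in corn oil and 9.45, 9.32, 9.06 and 9.32 after TCDD in L-E rats, and 8.80, 9.55, 9.01 and 8.85 and 8.65, 8.85, 9.48 and 9.28 in LnC rats. In H/W rats it read 9.13, 9.32, 9.52 and 9.39 and 10.97, 10.74, 10.70 and 10.51, and in LnA rats 8.26, 8.48, 8.20 and 7.01 and 9.92, 10.59, 10.51 and 9.74. TCDD and corn oil arrays did not overlap in H/W and LnA, where the effects were 1.39 and 2.20, and overlapped in L-E (0.36) and LnC (0.01). The interaction was -1.61 (standard error 0.25, adjusted p = 0.00154 from limma). Within the pairs, LnC minus LnA (-2.19) was called with an adjusted p of 0.00291 and L-E minus H/W (-1.03) was not, with 0.254. One corn oil array of LnA rats, replicate 4, was lower than the other 3, and the call held without it.

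These neighbours move together, so the sequence around an annotated start of each is shown (RefSeq, assembly GRCr8, minus strand, 250 bases before the start to 50 after it). Slc17a1 spans chr17:41647332-41683078 and Slc17a3 chr17:41698679-41729057, 15.6 kb apart. The windows are chr17:41681125-41681424 for Slc17a1 and chr17:41723060-41723359 for Slc17a3. A search of both strands for the letters GCGTG found none in either window.
Slc17a1: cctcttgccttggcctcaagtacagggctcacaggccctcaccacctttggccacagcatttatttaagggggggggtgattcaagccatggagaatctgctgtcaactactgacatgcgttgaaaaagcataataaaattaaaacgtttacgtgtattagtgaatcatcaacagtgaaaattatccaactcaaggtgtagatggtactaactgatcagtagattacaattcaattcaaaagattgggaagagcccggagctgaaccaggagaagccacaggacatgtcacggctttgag
Slc17a3: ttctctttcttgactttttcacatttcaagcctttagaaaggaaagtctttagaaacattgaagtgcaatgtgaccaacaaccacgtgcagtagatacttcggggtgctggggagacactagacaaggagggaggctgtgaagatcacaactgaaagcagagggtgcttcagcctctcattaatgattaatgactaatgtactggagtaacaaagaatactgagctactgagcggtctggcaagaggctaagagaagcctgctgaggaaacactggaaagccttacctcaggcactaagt
The same letters were in 29.7% of all 33469 promoters of the table and in 46.0% of the 9498 that belong to genes measured here. Of the 10 called genes 7 have an entry, and 2 of the 7 (28.6%) hold the letters.

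Mtus1 encodes a protein that binds microtubules and the angiotensin type 2 receptor. In L-E rats it read 8.63, 8.63, 8.70 and 8.74 in corn oil and 7.60, 7.75, 7.55 and 7.57 after TCDD, and in LnC rats 8.35, 8.17, 8.04 and 8.17 and 6.76, 6.92, 7.01 and 6.85. In H/W rats it read 8.39, 8.17, 8.58 and 7.98 and 7.80, 7.96, 7.94 and 7.95, and in LnA rats 8.31, 8.35, 8.47 and 8.04 and 7.61, 8.14, 7.95 and 7.98. The TCDD arrays were lower than the corn oil arrays without overlap in L-E, LnC and H/W, and the groups overlapped in LnA. Mtus1 fell by 1.06 in L-E and by 1.30 in LnC, and its effect was -0.37 in both resistant strains/lines (interaction -0.81, standard error 0.11, adjusted p = 0.000237 from limma). A second probe set for Mtus1, of lower mean signal (5.97 against 7.97), had effects of -0.87, -0.92, -0.41 and -0.66 in L-E, LnC, H/W and LnA, and its interaction of -0.36 was not called (unadjusted p = 0.0778 in limma).

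Slc25a15 encodes the mitochondrial ornithine carrier, which serves the urea cycle. Its corn oil arrays read 11.26, 11.47, 11.13 and 11.28 in L-E and 11.18, 11.10, 11.05 and 10.93 in LnC rats, and its TCDD arrays 10.79, 10.60, 10.53 and 10.75 and 10.13, 10.12, 9.95 and 10.19. In the resistant collective the corn oil arrays read 11.53, 11.18, 11.46 and 11.43 in H/W and 10.76, 10.99, 11.03 and 10.87 in LnA rats, and the TCDD arrays 11.15, 10.99, 11.25 and 11.22 and 10.74, 10.66, 10.66 and 11.10. All TCDD arrays were below those of corn oil in L-E and LnC, and the groups overlapped in H/W and LnA. The effects were -0.62 and -0.97 in the sensitive collective and -0.25 and -0.12 in the resistant collective (interaction -0.61, standard error 0.10, adjusted p = 0.00194 from limma). The difference was called between the lines (-0.85, adjusted p = 0.00291) and not between the parental strains (-0.37, adjusted p = 0.312).

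Cyfip2, Ackr3 and Bambi were higher after TCDD chiefly in the sensitive collective, and Vxn in that collective and, by less, in H/W. The mean signal of these 4 genes was under the lowest array median of 3.52 in all 4 corn oil groups. The size of their log2 differences thus rests on how low signals were scaled. Cyfip2 encodes a subunit of the WAVE complex that controls actin. It read 2.97, 3.02, 3.08 and 2.77 in corn oil and 4.80, 5.15, 5.66 and 5.63 after TCDD in L-E rats, and 3.07, 3.11, 3.12 and 3.11 and 5.89, 4.75, 5.36 and 5.16 in LnC rats. It read 3.07, 3.11, 2.99 and 3.10 and 3.83, 4.67, 3.08 and 3.10 in H/W rats, and 3.12, 3.10, 3.09 and 3.15 and 3.16, 3.11, 3.13 and 3.50 in LnA rats. Every TCDD array of L-E and LnC was higher than every TCDD array of H/W and LnA, where replicate 2 of H/W, at 4.67, stood nearest. The effects were 2.35 and 2.19 against 0.60 and 0.11 (interaction 1.91, standard error 0.24, adjusted p = 0.000157 from limma).

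Ackr3 encodes an atypical chemokine receptor that takes up CXCL12. Its corn oil arrays read 2.90, 2.88, 3.23 and 3.01 in L-E and 3.25, 3.34, 3.39 and 3.37 in LnC rats, and its TCDD arrays 5.30, 5.18, 6.16 and 5.18 and 6.17, 5.40, 4.09 and 5.39. In H/W rats it read 3.15, 3.03, 2.99 and 3.04 in corn oil and 3.20, 3.31, 3.17 and 3.36 after TCDD, and in LnA rats 3.25, 3.13, 3.22 and 3.28 and 3.40, 3.37, 4.24 and 3.38. TCDD and corn oil arrays did not overlap in any strain/line, by a wide gap in L-E and LnC and by a narrow one in H/W and LnA, and the lowest LnC array (4.09) was below the highest LnA array (4.24). The effects were 2.45 and 1.93 against 0.21 and 0.38 (interaction 1.90, standard error 0.27, adjusted p = 0.00042 from limma). Between the parental strains the difference was called (2.24, adjusted p = 0.00768), and between the lines it was not (1.55, adjusted p = 0.217).

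Ackr3 and Slc25a15 are the called genes whose RefSeq promoter window (GRCr8, plus strand) holds the letters GCGTG, shown in capitals. The window of Ackr3 is chr9:98247104-98247403, with 3 copies that start at -168, -160 and -146 relative to the annotated start. That of Slc25a15 is chr16:76336620-76336919, with 1 copy at -158, which also lies in a match to TNGCGTG, found in 4.89% of all promoters and in 7.21% of those of genes measured here. Of the windows shown, those of Slc25a15, Slc17a1 and Slc17a3 lie inside the annotated gene, at a start other than its outermost one.
Ackr3: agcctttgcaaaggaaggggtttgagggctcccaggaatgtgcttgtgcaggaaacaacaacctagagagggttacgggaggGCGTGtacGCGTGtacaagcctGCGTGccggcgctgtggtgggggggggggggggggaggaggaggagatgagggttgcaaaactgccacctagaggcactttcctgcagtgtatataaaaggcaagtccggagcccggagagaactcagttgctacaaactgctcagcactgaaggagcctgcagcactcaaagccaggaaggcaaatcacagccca
Slc25a15: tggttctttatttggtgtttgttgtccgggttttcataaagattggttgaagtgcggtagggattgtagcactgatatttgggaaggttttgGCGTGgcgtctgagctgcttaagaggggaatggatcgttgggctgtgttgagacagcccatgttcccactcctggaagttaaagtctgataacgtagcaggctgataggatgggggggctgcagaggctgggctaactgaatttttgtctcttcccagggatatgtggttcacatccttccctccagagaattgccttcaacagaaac
Ackr3 was higher after TCDD and Slc25a15 lower, and a match of letters is a description of the window and not a binding site. The windows of Cyfip2, Bambi and Fam8a1 held no copy.

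Vxn encodes vexin, known from the differentiation of neurons. Its corn oil arrays lay between 3.13 and 3.33 in all 4 strains/lines. After TCDD it read 4.89, 7.04, 6.03 and 7.24 in L-E rats and 6.56, 5.99, 6.53 and 5.56 in LnC rats, and 4.88, 4.62, 4.55 and 5.53 in H/W rats and 4.21, 3.90, 3.35 and 3.28 in LnA rats. The 4 groups after TCDD stood in that order, and L-E and H/W arrays overlapped, since L-E replicate 1 (4.89) was below the highest H/W array. The effects were 3.09, 2.89, 1.63 and 0.41 (interaction 1.97, standard error 0.33, adjusted p = 0.0034 from limma). Neither pair was called, with 2.48 between the lines (adjusted p = 0.0168) and 1.46 between the parental strains (adjusted p = 0.215).

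Bambi encodes a membrane protein that resembles a TGF-beta receptor without its kinase and dampens that signal. It read 2.97, 3.01, 2.78 and 3.74 in corn oil and 4.50, 5.68, 5.26 and 5.05 after TCDD in L-E rats, and 3.02, 3.63, 3.04 and 3.00 and 4.47, 4.43, 4.58 and 3.11 in LnC rats. In the resistant collective its 16 arrays lay between 2.83 and 3.30. The groups did not overlap in L-E and overlapped in LnC, where replicate 4 after TCDD read 3.11. The interaction of 1.37 (standard error 0.25, adjusted p = 0.00915 from limma) was the one nearest to the threshold, and it was lost without any single array other than 5 (L-E corn oil replicate 4, L-E TCDD replicate 1, H/W TCDD replicate 3, LnC corn oil replicate 2 and LnC TCDD replicate 4), with an adjusted p of up to 0.0229.

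Fam8a1, a partner of the ubiquitin ligase HRD1 in the endoplasmic reticulum, rose in all 4 strains/lines. It read 12.38, 12.41, 12.45 and 12.56 after TCDD in L-E, 12.72, 12.34, 11.94 and 11.90 in LnC, 12.34, 12.17, 11.90 and 11.74 in H/W and 11.32, 11.19, 11.58 and 11.38 in LnA rats, and corn oil arrays lay between 9.48 and 10.23. No TCDD array overlapped with corn oil, and the LnA arrays were the lowest after TCDD and the highest in corn oil. The effects were 2.75 in L-E, 2.51 in LnC, 2.42 in H/W and 1.24 in LnA (interaction 0.79, standard error 0.14, adjusted p = 0.00508 from limma). The difference was called between the lines (1.26, adjusted p = 0.00241) and not between the parental strains (0.32, adjusted p = 0.508). The call ended without any 1 of 15 arrays (L-E corn oil 1 or 3, L-E TCDD 4, H/W corn oil 1 or 3, H/W TCDD 4, LnA corn oil 2 or 4, LnA TCDD 1, 2 or 4, LnC corn oil 1 or 3, LnC TCDD 1 or 2), with an adjusted p of up to 0.0132.

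Cpb2 encodes a plasma carboxypeptidase made by hepatocytes that slows the dissolution of clots. In L-E rats it read 12.44 to 12.64 in corn oil and 13.06 to 13.24 after TCDD, and in LnC rats 12.54 to 12.84 and 12.94 to 13.37, with no overlap in either. In H/W rats it read 12.07 to 12.21 and 12.16 to 12.35, and in LnA rats 12.42 to 12.65 and 12.38 to 12.61, with overlap in both. The effects were 0.62 and 0.47 against 0.13 and -0.01 (interaction 0.48, standard error 0.08, adjusted p = 0.00205 from limma), the smallest in size among the 10. Of the 10, Cpb2 was the only gene for which limma also called the corn oil arrays between the collectives (sensitive minus resistant 0.27, adjusted p = 0.0049). That difference shares those arrays with the interaction. The corn oil means were 12.55 in L-E, 12.66 in LnC, 12.14 in H/W and 12.53 in LnA, so H/W alone stood apart. For the other 9 the corn oil difference lay between -0.16 and 0.33.

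**Figure D2:**
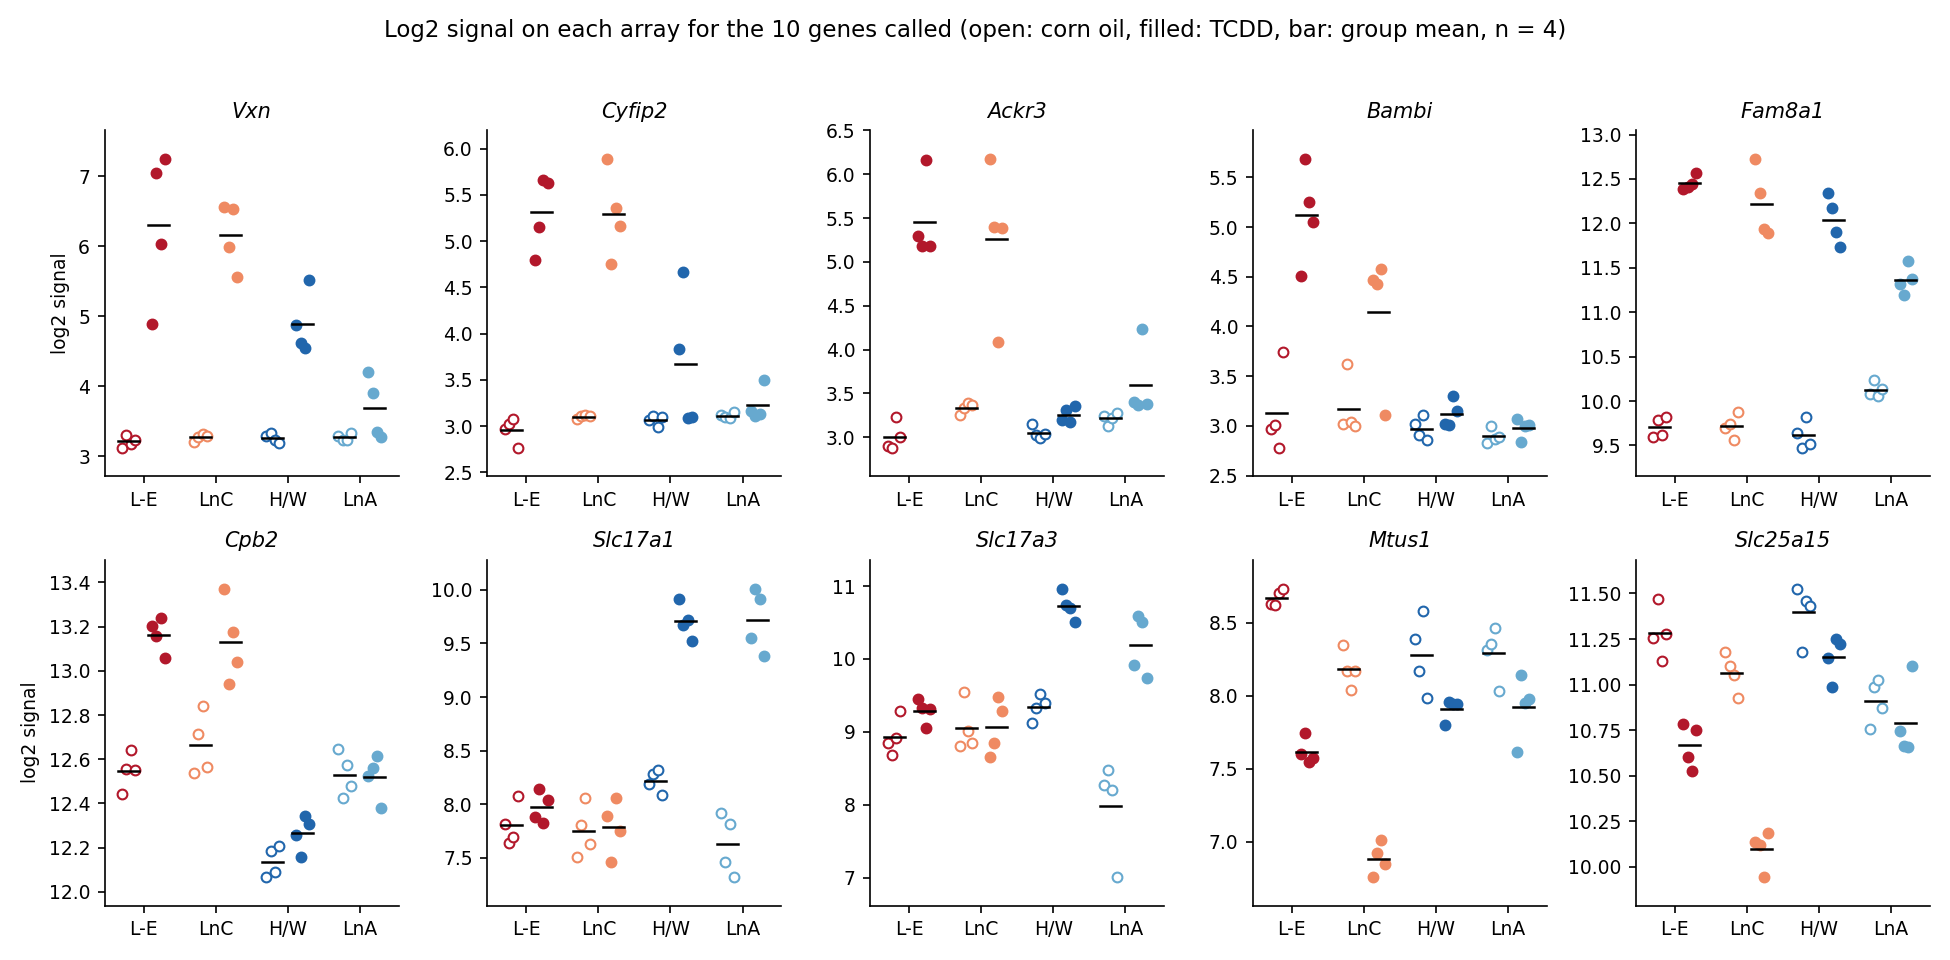
Log2 signal on the y axis for each of the 32 arrays, for the 10 called genes, with corn oil (open) and TCDD (filled) arrays of L-E, LnC, H/W and LnA along the x axis and a bar at each group mean (n = 4). Slc17a1 and Slc17a3 are high in the TCDD arrays of H/W and LnA alone. Cyfip2, Ackr3 and Bambi leave the level of the corn oil arrays chiefly in L-E and LnC, and Vxn does so in H/W as well.

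In H/W rats TCDD and corn oil arrays did not overlap for 8.08% of all genes and in LnA for 8.90%, against 13.3% in L-E and 9.90% in LnC. Among the 10 called genes the counts without overlap were 8 in L-E, 7 in LnC, 6 in H/W and 4 in LnA. The rule used these same arrays, so nothing is read from the counts. Scan day was shared by all LnA and LnC arrays, and H/W and L-E arrays shared 2 other days, with 2 H/W arrays on a day of their own. It was balanced between TCDD and corn oil within each strain/line. The direction of all 10 genes was the same between L-E and H/W on both days that hold TCDD and corn oil arrays of both. The rule had fixed the sign of their L-E minus H/W difference over all days, so this agreement was favoured in advance. LnC and LnA share a single day, so their direction within it was fixed by the rule. Because scan day was balanced, a block for it could not change the 10 values. The count with that block was 10 (9 of them the same genes). The fluidics station of the hybridisation did go with treatment in part. All 4 TCDD arrays of L-E came from station 2 and all 4 corn oil arrays from station 1, LnA and LnC had 3 of 4 TCDD arrays on station 2 and all corn oil arrays on station 1, and H/W had all 4 TCDD arrays and 3 of 4 corn oil arrays on station 1. With the station as a block, chosen after seeing the data, 5 of the 10 remained called (Slc17a1, Slc17a3, Mtus1, Cyfip2 and Ackr3), and Cpb2, Bambi, Slc25a15, Fam8a1 and Vxn kept their direction with adjusted p of 0.0604 to 0.103 in limma.

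**Figure D3:**
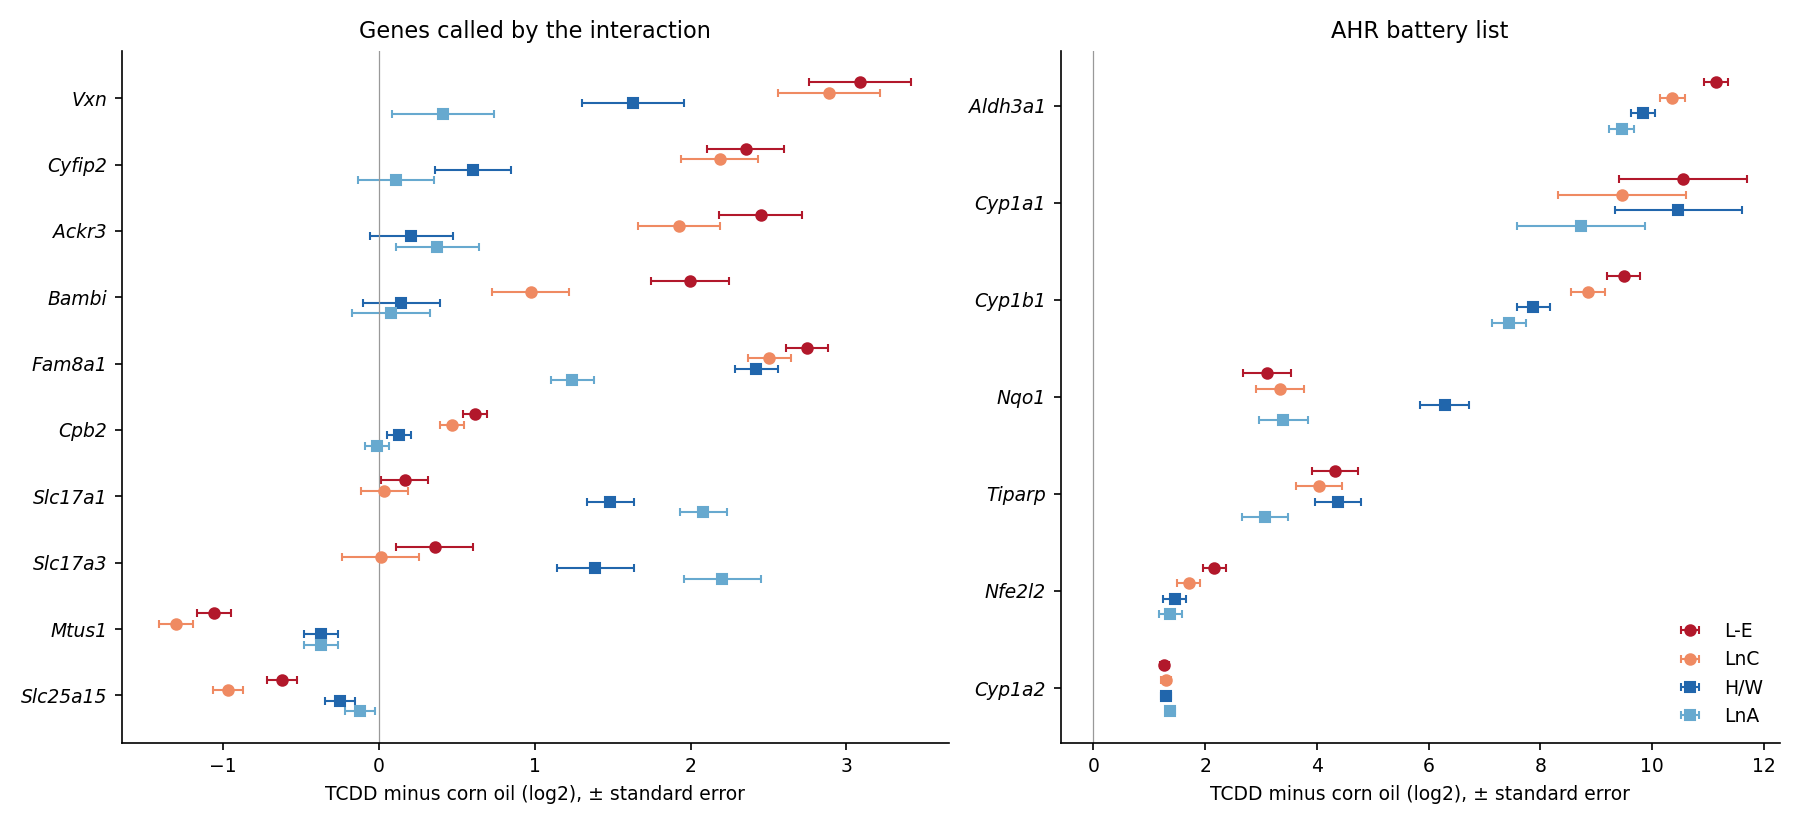
TCDD effect (log2, TCDD minus corn oil, ± standard error of the fit over 8 groups, n = 4 per group) on the x axis for each called gene (left) and each measured gene of the AHR battery (right) on the y axis, with circles for L-E and LnC and squares for H/W and LnA. On the left circles and squares lie apart, least so for Fam8a1 (2.51 in LnC and 2.42 in H/W), and on the right the 4 effects of Cyp1a2 lie between 1.27 and 1.38 and H/W stands apart for Nqo1.

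The genes nearest to the threshold from outside were Arhgef11 (-0.37, adjusted p = 0.0136), Larp1b, an RNA-binding protein (-0.84, adjusted p = 0.0204), and Aldh3a1 (1.11, adjusted p = 0.0236), by limma. Nearest inside were Vxn, Fam8a1 and Bambi (adjusted p of 0.0034 to 0.00915). Larp1b fell by 1.35 in L-E and by 0.63 in LnC, with effects of -0.04 and -0.27 in H/W and LnA. Its corn oil arrays were 0.72 higher in the sensitive collective. Their means were 6.48 in L-E, 5.48 in LnC, 5.38 in H/W and 5.15 in LnA, so LnC lay nearer to both resistant means than to L-E. At an adjusted p under 0.05 the count was 17 genes (0.163%), 16 of them with the separation. The other 4 of these, named after their values were seen, were Fam171a1 (2.07, adjusted p = 0.0237 in limma), Cyp1b1, Sebox and Ppil2 (0.55, adjusted p = 0.0494). The mean signal of Fam171a1 was under the lowest array median in every corn oil group and in H/W and LnA after TCDD. Its size thus rests on how low signals were scaled.

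The AHR battery are genes that the receptor is known to induce directly, and 7 of the 10 listed were measured. They are also the 7 that the study lists as known dioxin-inducible genes, so the list is not independent of its results. All 7 rose in the average over the 4 strains/lines, and none was called by the interaction. It was above 0 for 5 of the 7 (median 0.46), beside 69.9% of all genes. With array weights Aldh3a1 and Cyp1b1 were called (adjusted p = 0.0043 and 0.00157 in limma), and Cyp1b1 also without L-E TCDD replicate 1, H/W TCDD replicate 3 or LnC TCDD replicate 4. Aldh3a1, an aldehyde dehydrogenase, had the largest averaged effect of all genes, 10.20. Its TCDD arrays read 13.86, 13.78, 14.12 and 14.11 in L-E, 13.37, 13.60, 13.72 and 13.50 in LnC, 13.17, 13.76, 13.40 and 13.39 in H/W and 12.69, 12.26, 12.02 and 12.13 in LnA rats. The groups thus stood in that order with the LnA arrays below all others, from corn oil signals of 2.48 to 4.47. In 3 of the 4 strains/lines the corn oil mean was under the lowest array median, so this size rests on how low signals were scaled.

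Cyp1b1, a steroid hydroxylase, had effects of 9.49 in L-E, 8.85 in LnC, 7.87 in H/W and 7.43 in LnA (interaction 1.51, 95% interval 0.89 to 2.13, adjusted p = 0.0237 from limma). Its corn oil means, 3.44 to 3.84, were under or little above the lowest array median of 3.52, so these sizes also rest on how low signals were scaled. Nfe2l2, the regulator of antioxidant genes, had 2.17, 1.71, 1.46 and 1.38 in the same order (interaction 0.52, adjusted p = 0.581). Cyp1a2 rose by 1.27, 1.30, 1.30 and 1.38, and the interval of its interaction, -0.23 to 0.12, was narrow. For Cyp1a1 the interval, -1.94 to 2.76, was wide. Its TCDD arrays all lay between 14.27 and 14.69, whereas its corn oil arrays ranged from 2.13 to 8.60, so the TCDD arrays differed far less among themselves than the corn oil arrays did. Tiparp, an ADP-ribosyltransferase that represses the AHR, had effects of 4.32, 4.05, 4.37 and 3.08 with an interval of -0.39 to 1.31.

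Nqo1, a quinone reductase, had the largest interaction of the battery in size, -1.62 (95% interval -2.51 to -0.72, adjusted p = 0.245 from limma). H/W arrays read 3.66, 6.83, 5.32 and 4.84 in corn oil, and the corn oil arrays of the other 3 strains/lines 8.04 to 9.96. After TCDD the H/W arrays read 11.14, 11.12, 11.61 and 11.92, against 11.93 to 12.64 in the others. H/W rats were thus lowest in both conditions, overlapping with the others in neither, and LnA, the other resistant line, had an effect of 3.40, beside 3.11 in L-E and 3.34 in LnC. The corn oil difference between the collectives was 2.19 (adjusted p = 7.28e-05), which shares its arrays with the interaction.

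Of the AHR and its partners 11 of 14 genes were measured and none was called (median interaction 0.00). Ahr itself rose on average, with effects of 1.48, 0.91, 0.48 and 0.63 in L-E, LnC, H/W and LnA. Its interaction was 0.65 (adjusted p = 0.581 in limma), and its mean signal in corn oil was 2.15 to 3.75. In LnC, H/W and LnA the mean signal was under the lowest array median of 3.52 both in corn oil and after TCDD. These sizes thus rest on how low signals were scaled. Ahr has 2 probe sets, and only that of higher mean signal was read. Ptges3, a cochaperone of the receptor, had an interaction of -0.27 (adjusted p = 0.581 in limma). The probe set of Ahr does not check the deletion, since its place in the transcript is not given in the sources used here.

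The average TCDD effect over the 4 strains/lines was called for 1442 genes (13.9%), 779 higher (7.48%) and 663 lower (6.37%), and with the fluidics station as a block for 660. All 4 effects had the same sign in 1348 of them (93.5%), and the interaction was under 0.5 in size in 1322 (91.7%) and 1 or more in 19 (1.32%). The mean effect was larger in the sensitive collective for 1057 of the 1442 (73.3%), 72.5% of the higher and 74.2% of the lower genes, beside 41.8% of all 10411 genes in the direction of their own average (52.9% with quantile normalization and 61.4% with centred arrays). The median size was 0.47 for L-E, 0.41 for LnC, 0.32 for H/W and 0.37 for LnA. L-E had a larger effect than H/W in 72.7% and LnC a larger one than LnA in 58.9%. Both sensitive effects were beyond both resistant ones in 456 (31.6%), and the reverse held in 100 (6.93%). Leaving out any single array gave 71.1% to 74.7% in place of 73.3%.

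Centring and the fluidics station moved these shares. With each array centred on its median 58.7% of the higher and 82.2% of the lower genes had the larger effect in the sensitive collective, and with the fluidics station as a block 54.6% of the higher and 74.5% of the lower. With the station the median effect of the higher genes was 0.29 in both collectives, and L-E had the larger effect than H/W in 50.1% of them. LnC and LnA were spread over the stations alike in each treatment. A station block therefore could not move their shares, and nothing is read from these. These shares are descriptions without a test, over genes that are not independent replicates.

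**Figure D4:**
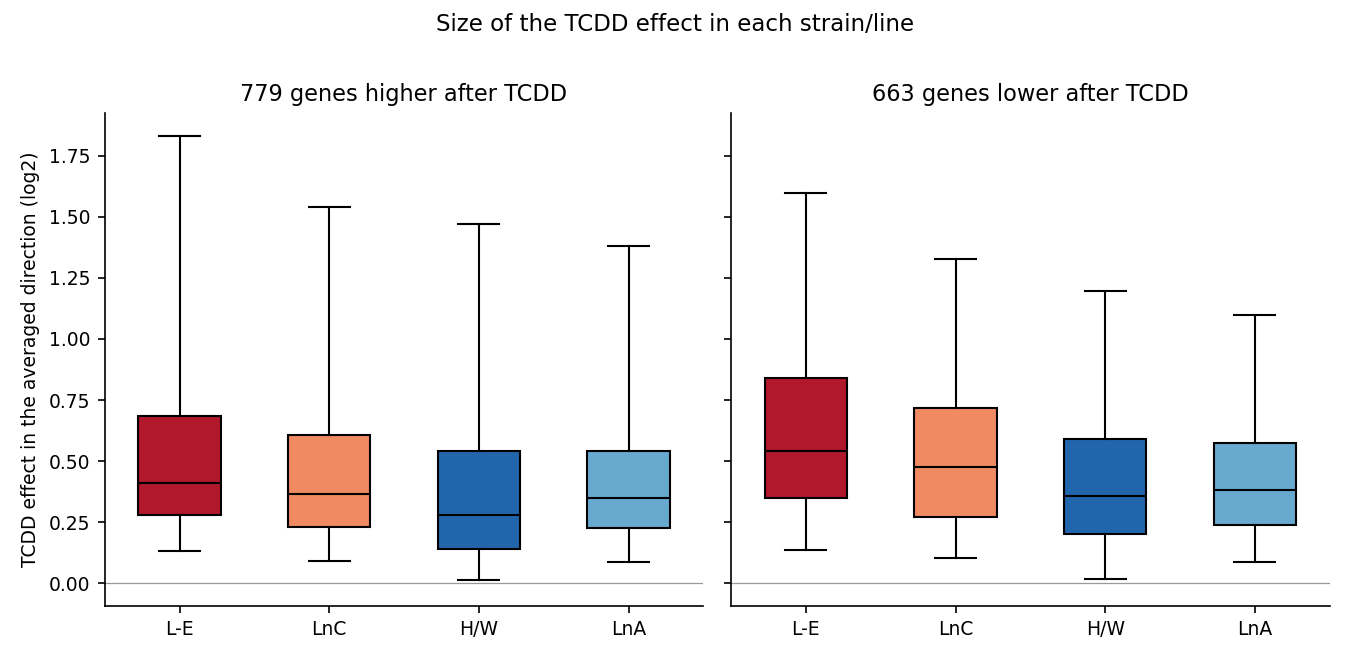
TCDD effect in the direction of the averaged effect (log2, y axis) in each strain/line (x axis) over the 779 genes higher (left) and 663 genes lower (right) after TCDD, with boxes from the lower to the upper quartile, a line at the median and whiskers from the 5th to the 95th percentile. The boxes overlap widely, with medians of 0.41, 0.37, 0.28 and 0.35 for the higher and 0.54, 0.47, 0.36 and 0.38 for the lower genes in L-E, LnC, H/W and LnA.

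The 6 genes with the largest averaged effect in each direction illustrate this. Besides Aldh3a1, Cyp1a1, Cyp1b1, Nqo1 and Tiparp, the clock gene Per2 had effects of 5.30 in L-E, 3.45 in LnC, 3.45 in H/W and 2.63 in LnA, with an interaction of 1.34 (adjusted p = 0.581 from limma). Inmt, an amine methyltransferase, had -5.03, -4.09, -4.59 and -3.25, and Cyp7a1, the rate-limiting enzyme of bile acid synthesis, -4.59, -5.43, -5.01 and -1.91 in the same order. Aspg, an asparaginase, had -4.45, -3.46, -3.46 and -2.72, and Nrep, Nr0b2 and the anion transporter Slco1a4 complete the group. None of these 12 genes was called, and their interactions lay between -1.62 and 1.51. The 95% interval for Cyp7a1 was wide, from -4.62 to 1.51.

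Among lists of genes of liver metabolism and stress, the amino acid and urea cycle list held the only called member, Slc25a15. Of its 53 measured genes 40 had an interaction below 0, against 3129 of all 10411, with a median of -0.14 (all genes 0.04), and 12 had an unadjusted p under 0.05 (22.6%, beside 7.93% of all genes). The averaged effect was called lower for 26 and higher for 6, beside 6.37% and 7.48% of all genes. Of these 32, 27 had the larger effect in the sensitive collective, beside 73.3% of all called genes. The urea cycle enzymes were named after their values were seen. Arginase, Arg1, had effects of -1.28 in L-E, -0.71 in LnC, -0.50 in H/W and -0.40 in LnA (interaction -0.55, adjusted p = 0.296 from limma). Of the others Otc (-0.26), Ass1 (-0.30), Cps1 (-0.22) and Asl (-0.06) had smaller interactions, and none of the 5 was called. Aass, which starts lysine breakdown, and Prodh, which starts proline breakdown, had the list's largest interactions, -0.70 and -0.65, with wide errors (0.41 and 0.34).

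Of 20 genes of cholesterol synthesis and uptake, 19 had an interaction below 0, against 3129 of all 10411. The median was -0.26, and -0.51 with the fluidics station as a block. None was called and 3 had an unadjusted p under 0.05 (15%, beside 7.93% of all genes). The averaged effect was called lower for 5 (6.37% of all genes), and each was larger in the sensitive collective, as were 74.2% of all genes called lower. Hsd17b7, a sterol reductase, had effects of -1.73, -0.97, -0.17 and -0.51 in L-E, LnC, H/W and LnA, and Idi1, which makes isoprenoid precursors, had -1.64, -0.73, -0.27 and -0.88. Both averages were called and neither interaction was (adjusted p of 0.361 and 0.581 in limma).

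The median was 0.09 for DNA damage and cell cycle, with 24 of 26 members above 0, and 0.06 for oxidative phosphorylation, with 41 of 49 above 0, beside 69.9% of all genes. Of the latter list 19 of 49 were called higher on average, beside 7.48% of all genes. With centred arrays the medians were 0.04 and 0.01. Gadd45g, a stress-induced growth regulator, had the largest interaction of all genes, 2.16, with a standard error of 0.85 and an adjusted p of 0.575. Ndufb8, a subunit of complex I, had 0.25 with a standard error of 0.06 (adjusted p = 0.132), and Cox5a of complex IV 0.31. In fatty acid synthesis (26 genes, median 0.04) the desaturase Scd had effects of 2.46 and 1.07 in L-E and LnC and -0.12 and 0.39 in H/W and LnA (adjusted p = 0.581), and the elongase Elovl6 3.53, 1.69, 1.05 and 2.34.

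The remaining lists had medians between -0.06 and 0.04 and no called member: NRF2 targets (15 genes), cytochrome P450 families 2 to 4 (27), conjugation enzymes (34), fatty acid oxidation and ketone bodies (41), bile acid synthesis and transport (25), glucose metabolism (39), circadian clock (14), acute phase and plasma proteins (37), apolipoproteins (16), endoplasmic reticulum folding and degradation (30), nuclear receptors and hepatocyte transcription factors (38), and heme and iron (15). Centring lowers the interaction of every gene by the same amount. With centred arrays the median was therefore below 0 for each of these 12, which says nothing about the lists themselves. Gsta3, a glutathione S-transferase, had the lowest interaction of all genes, -1.99 (standard error 0.63, adjusted p = 0.361), with effects of 0.16, 0.13, 1.16 and 3.11 in L-E, LnC, H/W and LnA. Its mean signal was under the lowest array median in all 4 corn oil groups and in L-E and LnC after TCDD, so these sizes rest on the scaling of low signals. Hamp, the iron hormone hepcidin, had -1.22, -4.39, -1.11 and -1.24, an interaction of -1.63 with a standard error of 1.11. In the heme and iron list, 5 of 15 genes had an unadjusted p under 0.05 (33.3%, beside 7.93% of all genes). Its interactions were below 0 for 9 genes and above 0 for 6, with a median of -0.03.

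**Figure D5:**
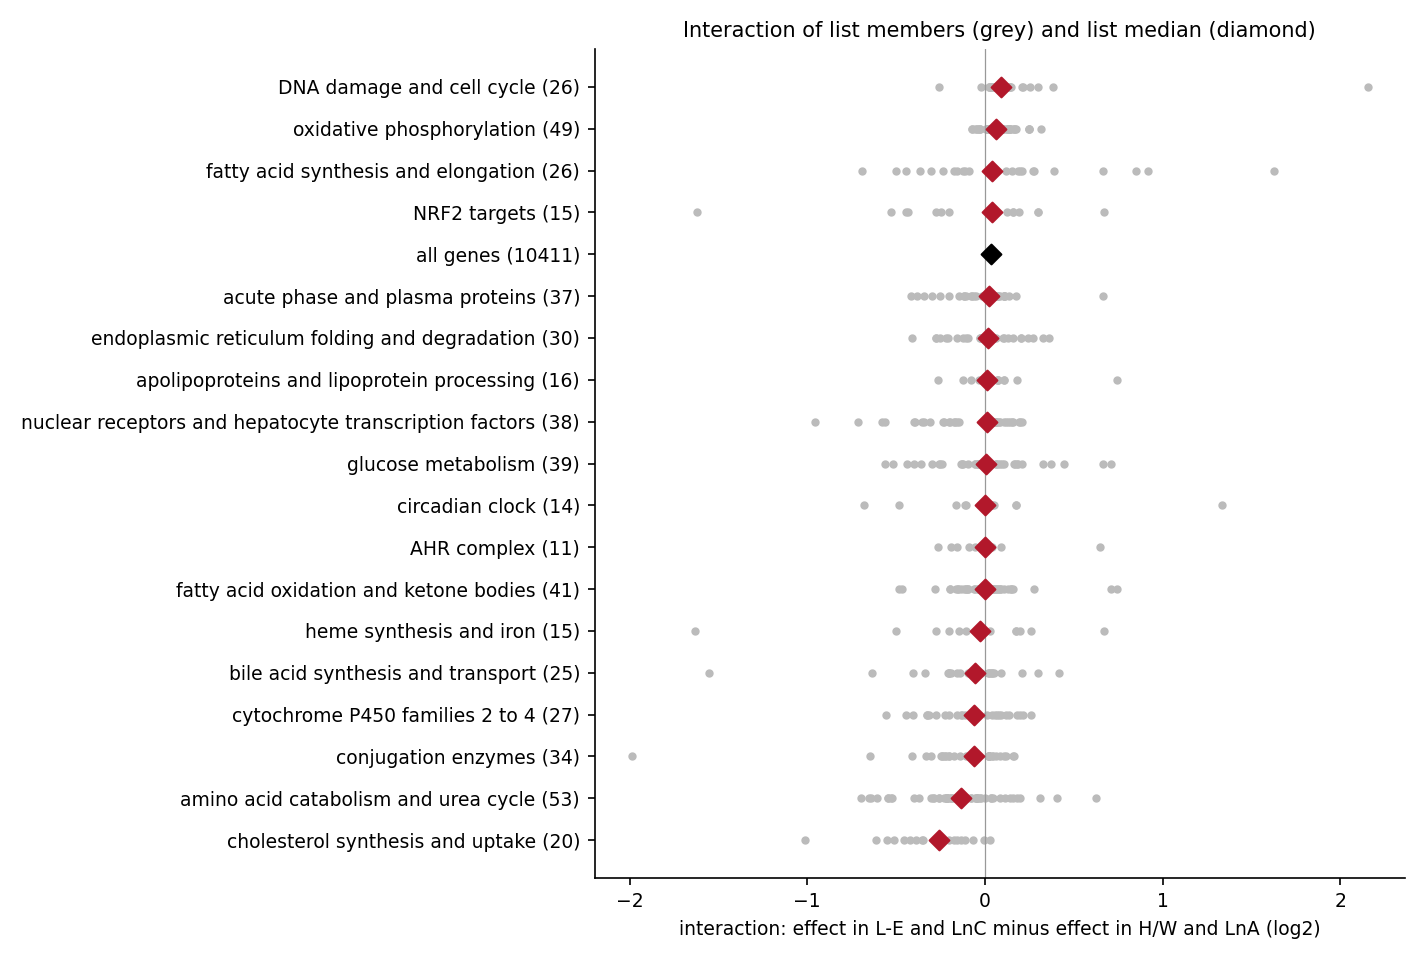
Interaction (log2, effect in L-E and LnC minus effect in H/W and LnA, x axis) of each measured member (grey) and list median (red diamond) for the 18 lists of pathways other than the AHR battery (y axis, number of genes in brackets), and the median of all genes in black. Medians of these lists run from -0.26 for cholesterol synthesis and uptake to 0.09 for DNA damage and cell cycle, and single members reach -1.99 and 2.16.

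The study's own criterion calls a gene Type-II when it is altered in both members of a collective and in neither of the other. On these values, with each strain/line fitted alone in limma at an adjusted p under 0.01, it gave 27 genes, 22 for the sensitive (0.211%) and 5 for the resistant collective (0.0480%), the latter Hacl1, Stk24, Slc17a1, Hal and Abhd4, named after their values were seen. Of these 27, 4 were among the 10 called by the interaction (14.8% of the 27 and 40% of the 10): Slc17a1, Cyfip2, Mtus1 and Slc25a15. An unadjusted p under 0.05 of the interaction was reached by 14 of the 27, beside 7.93% of all genes. The separation was met by 18 of them, beside 51.2% of all genes. The 27 were chosen on these same arrays, so nothing is read from these counts. Hacl1, a peroxisomal lyase, had effects of -1.43 in L-E, -1.84 in LnC, -1.63 in H/W and -1.41 in LnA and an interaction of -0.12 (95% interval -0.80 to 0.56).

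Of the 43 genes that the study lists as altered in sensitive rats alone, 40 were measured and none was called. Their median interaction was -0.23, and 21 (52.5%) had an unadjusted p under 0.05, beside 7.93% of all genes. The averaged effect was called higher for 15 and lower for 23, beside 7.48% and 6.37% of all genes, so the median mixes both directions. Of these 38, 37 had the larger effect in the sensitive collective, beside 73.3% of all called genes. The genes of the list were chosen on these same samples and are no independent evidence of a difference. Nfib, a transcription factor, fell by 1.08 and 1.57 in L-E and LnC, with -0.49 and -0.73 in H/W and LnA (interaction -0.71, adjusted p = 0.245 from limma). Scn4b, a sodium channel subunit, had effects of 2.69, 1.11, -0.06 and -0.02 (interaction 1.94, adjusted p = 0.248), and its mean signal was under the lowest array median in every group but L-E and LnC after TCDD. Il1r1, Phyh and Hacl1, listed for resistant rats, were not called (interactions of -0.41, -0.11 and -0.12). Of 9 genes that the study also assayed by RT-PCR, with Per2, Elovl6 and Cyp7a1 among them, none was called on the arrays (median 0.41). Their averaged effect was called higher for 5 and lower for 3, so this median mixes both directions. The study picked its RT-PCR genes to cover large, small and absent responses. It reports that RT-PCR and arrays both gave induction of Elovl6 in sensitive rats and none in resistant rats.

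Tested separately, the pairs gave 6 called genes for L-E minus H/W (0.0576%) and 7 for LnC minus LnA (0.0672%), with Slc17a1 in both (0.00961%). At an unadjusted p under 0.05 the pairs had 1113 (10.7%) and 473 genes (4.54%). Named after their values were seen, the genes of the first pair were Ackr3, Ttpa, Larp1b, Slc17a1, Cxcl14 and Arhgef11, and those of the second Sebox, Mtus1, Slc25a15, Cyfip2, Slc17a1, Fam8a1 and Slc17a3. Of the 10 genes called over the collectives, 2 were thus called in the parental pair and 6 in the lines, and Vxn, Bambi and Cpb2 in neither. The count for the parental pair depended on single arrays, from 0 without L-E corn oil replicate 3 to 19 without L-E TCDD replicate 2, and it moved by over 1.5 times without any 1 of 20 arrays. The direct test of whether the difference itself changed with parentage called 2 genes (0.0192%), Slc13a2 and Sebox, and none of the 10 (adjusted p of 0.37 or more in limma).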

How the data were processed

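RNA from the liver of single rats was read on Affymetrix RAE230A arrays. The authors deposited log2 signals for 15923 probe sets, which the submitters' processing notes credit to R 2.3.1, affy 1.10.0 and GCRMA 2.4.1, whereas the study's methods describe RMA with an Entrez Gene definition file. GCRMA models background from probe sequence, so differences from low signals depend on that model. Here 57 control probe sets were left out, and of 15866 others 12783 had 1 gene symbol in the platform annotation (312 several, 2771 none). Each gene was read from its probe set of highest mean signal (10411 genes, 1868 with several probe sets).

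limma 3.58.1 in R 4.3.3 was fitted to the 8 group means of 32 arrays, with no covariate, and p was adjusted by Benjamini-Hochberg over all genes at a threshold of 0.01. The numbers of arrays per group limit the precision, and the depth of an array has no count. Replicates were separate rats. The genes named are those called, the 3 nearest to the threshold on each side, the 2 largest interactions of a list, the 6 largest averaged effects in each direction, and genes of the study's lists, and any others are said to be named after their values were seen. Members and lists were chosen with earlier results of these data known. Alternatives were other scalings, probe set rules, filters, variance models, thresholds, blocks (fluidics station and a test of every non-control probe set were chosen after seeing the data) and leaving out each array. The scripts were tested on simulated data. The 8 arrays at 3 h have no corn oil group and enter no comparison between the collectives. Promoter sequences and gene positions are from RefSeq on GRCr8.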

Additional observations from a re-analysis of the deposited data

Results flagged for a closer look

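In 6 of the 80 groups of 4 arrays behind the 10 called genes, 1 array lay apart from the other 3, by a gap that took up more of the group's range than Dixon's 95% limit allows. Chance gives such a gap in about 1 of 20 groups. They were Cyfip2 in LnA after TCDD, replicate 4 (0.874 of the range), Ackr3 in L-E after TCDD, replicate 3 (0.879), Ackr3 in LnA after TCDD, replicate 3 (0.967), Bambi in LnC after TCDD, replicate 4 (0.897), Bambi in LnC in corn oil, replicate 2 (0.928), and Mtus1 in H/W after TCDD, replicate 1 (0.928).

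The difference between sensitive and resistant rats was itself different between the parental strains and the lines for 2 genes, tested in limma over all genes. Slc13a2, a citrate transporter, had a difference of 3.20 between the pairs, with effects of -0.02 in L-E, -1.96 in LnC, -1.27 in H/W and -0.01 in LnA and a mean signal of 2.25, under the lowest array median. Sebox, a homeobox gene, had -2.16, with effects of 0.67, 2.09, 1.01 and 0.27.

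A probe set without a gene symbol in the annotation used here had an interaction of -2.48 (standard error 0.36, adjusted p = 0.000923 over 15866 probe sets in limma), with effects of 0.08 in L-E, 0.00 in LnC, 3.21 in H/W and 1.84 in LnA. The arrays at 3 h after TCDD, which have no corn oil group of their own time and have a scan day that no other arrays share, were set against the corn oil arrays at 19 h. In H/W rats all 3 h arrays were above all corn oil arrays for Ackr3 (by 0.531 between the means), Cpb2 (0.175), Slc17a1 (0.637), Fam8a1 (0.976) and Slc17a3 (0.386), and the arrays did not overlap, in either direction, for 12.1% of all genes. In L-E rats they were above for Ackr3 (1.67), Cpb2 (0.219), Slc25a15 (0.799) and Fam8a1 (1.0) and below for Mtus1 (-1.11), with no overlap in either direction for 17.5% of all genes. Time after dosing, scan day and treatment cannot be told apart in these values.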

How the results depend on the processing

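None of the 10 called genes changed direction under the 9 alternatives or the 32 fits without an array that were run for single genes, and Slc17a1, Slc17a3 and Cyfip2 stayed called in each of them. Fam8a1 and Bambi lost the call in 15 and 27 of the 32 fits. Of the 9 alternatives, Bambi stayed called in 3, Fam8a1 in 5, Cpb2 in 6, Mtus1, Slc25a15 and Vxn in 7 each, and Ackr3 in 8. Bambi lost the call with quantile normalization, centring and scan day as a block, among others. Mtus1 lost it when probe sets were averaged, and Cpb2 and Fam8a1 lost it with centring, each also under other alternatives. Against 10 called genes, an adjusted p under 0.05 gave 16, one under 0.001 gave 4, the Type-II rule gave 27, and array weights gave 14 (9 shared). Quantile normalization gave 10 (5 higher and 5 lower), centring 8 (3 and 5) and the fluidics station 7 (2 and 5). The station gave 660 averaged effects in place of 1442, 1 gene for L-E minus H/W and 0 for the parentage difference. L-E minus H/W, with 6 genes, gave 10 when probe sets were averaged and 28 with array weights. The parentage difference, with 2, gave 1 with quantile normalization, 1 with centring and 8 with array weights. The cause of these shifts was not tested. Leaving out each array gave 8 to 15 called genes, 0 to 19 for L-E minus H/W, 3 to 8 for LnC minus LnA, 1 to 6 for the parentage difference and 1349 to 1501 averaged effects. The count of 0 for L-E minus H/W came without L-E corn oil replicate 3, and the 6 parentage differences without L-E TCDD replicate 2.

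Replicate numbers name rats and no source pairs them. Deviations of same-numbered TCDD and corn oil arrays correlated over 2137 genes at 0.07 to 0.29 (L-E), -0.26 to 0.10 (LnC), 0.01 to 0.15 (H/W) and 0.12 to 0.16 (LnA), and 2, 1, 3 and 3 of 4 arrays correlated best with their own number. With the number as a replicate block 3 genes were called, Slc17a1, Slc17a3 and Cyfip2, with 1 for L-E minus H/W, 3 for LnC minus LnA and 0 for the parentage difference. Signals under the array median limit the size of a difference for Vxn, Cyfip2, Ackr3 and Bambi.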
